A study of Homo sapiens with 30 samples.

Results

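The CDK9 inhibitor KI-ARv-03 was compared with its solvent DMSO after 4 h in 22Rv1, a cell line from human prostate cancer of the castration-resistant kind. The comparison holds 6 of the 30 SLAM-seq libraries of the study, 3 with 4 µM KI-ARv-03 for 4 h and 3 with DMSO for 4 h, chosen by their sample titles. Values from other libraries are given where the text names them. These are KI-ARv-03 and DMSO at 2 and 8 h, KB742 (another CDK9 inhibitor, given at 1.2 µM) at 4 h and cells at 0 h. The fits per gene took in all 30 libraries in 10 groups, KB742 at 2 and 8 h included. Their p-values for the 4 h comparison therefore rest in part on libraries outside the 6. All cells had been given 800 µM 4-thiouridine (s4U), a uridine analogue, for 30 min before the medium was replaced by medium with s4U and compound or DMSO, and the 0 h cells were collected at that change. The treatment field of 5 of the 6 libraries names another time than the title, and the title was followed. Nothing in the labels says that the 3 libraries of a group came from separate cultures, so p-values measure the spread between these libraries, which may be technical, in 1 cell line.

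CDK9 and a T-type cyclin form P-TEFb, the kinase that releases paused RNA polymerase II into productive elongation. When it is inhibited, transcription of most genes stalls early, and transcripts with short lives are lost first while long-lived ones remain. SLAM-seq reads both sides of this balance, because s4U built into new RNA is alkylated and read as T-to-C conversions. The level of a gene, in CPM (reads scaled to the library's total), measures old and new RNA together, and its conversion, in percent, grows as labelled RNA takes the place of old RNA.

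Conversion is a deposited value per transcript without the counts behind it. It cannot be read as the share of labelled reads, since 17.4% of the 87728 values that rest on exactly 1 read lie between 0 and 1. A gene's level is relative to all other genes of its library, so an equal loss of RNA from every gene would not show in it, and values of the spike-in RNA named in the protocol were not used here. The totals by which the deposited CPM values were scaled, recovered from what 1 read is worth, were 5321967 to 7601802 reads in the KI-ARv-03 libraries and 6238875 to 6372002 in the DMSO libraries. With 1 transcript per gene, as used here, the KI-ARv-03 libraries held 2287590 to 2851203 reads and the DMSO libraries 2070175 to 2623250, with 12996 to 13683 genes detected in each of the 6. Levels printed here are scaled to these smaller totals, so they are larger than the deposited CPM values. Luminal prostate markers summed to 1854 to 2016 CPM with KI-ARv-03 and 1800.2 to 1844 CPM with DMSO. Basal markers summed to 11.5 to 13.8 CPM with KI-ARv-03 and 7.31 to 13.6 CPM with DMSO, with 2 of 8 (KRT14 and TP63) at 0 in all 6 libraries. Immune markers summed to 6.55 to 15.4 CPM with KI-ARv-03 and 7.80 to 19.3 CPM with DMSO, with 4 of 10 (PTPRC, CD3E, MS4A1 and NKG7) at 0, and 7 of 8 endothelial markers were at 0. Neuroendocrine markers summed to 324 to 448 CPM with KI-ARv-03 and 296 to 517 CPM with DMSO, with 2 of 10 (NCAM1 and INSM1) at 0 in all 6 libraries. Stromal markers summed to 36.4 to 50.2 CPM with KI-ARv-03 and 51.7 to 61.8 CPM with DMSO, and their part in the results was not tested.

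One library stood apart in conversion. KI-ARv-03 replicate 1 had a median conversion over genes of 1.56%, against 0.246% and 0.241% in KI-ARv-03 replicates 2 and 3, and 0.668%, 0.672% and 0.823% in the DMSO libraries. In level it did not stand apart, with correlations across genes of 0.942 to 0.970 with the other 5 libraries (genes are not independent replicates). The highest, 0.970, was with DMSO replicate 2, against 0.967 and 0.950 with KI-ARv-03 replicates 2 and 3, and the cause was not tested. Because of its conversion, results on conversion are given with and without KI-ARv-03 replicate 1, as the second adjusted p where a sentence gives 2.

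The levels of 8 genes differed between KI-ARv-03 and DMSO at 4 h. Lower were the transcripts of the growth factor FGF18, the histidine methyltransferase METTL18, the heat shock co-chaperone DNAJB1, the antiproliferative deadenylation adaptor TOB2 and the SR-related protein PNISR, and MIR22HG, the host RNA of microRNA-22. Transcripts of CLK2, a kinase that phosphorylates SR splicing proteins, and CCNL2, an L-type cyclin that takes part in splicing, were higher. By limma with Benjamini-Hochberg adjustment at 0.05, 6 of 11414 genes tested (0.0526%) were lower and 2 (0.0175%) higher, 0.0701% in all. The 8 were also called by DESeq2 and with library weights, which called 21 and 71 genes in all, and 15 were called when a 0 h and a KB742 library that stand apart in level were left out of the fit.

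FGF18 showed the most negative difference of the 6. Its levels were 0, 0.874 and 0.358 CPM with KI-ARv-03, against 14.1, 16.4 and 34.1 CPM with DMSO. The gene was near absent in every treated library and present in every DMSO library, with 3 reads in the 3 KI-ARv-03 libraries together and 160 in the DMSO libraries. The ratio of those reads, each divided by the totals of the deposited scaling, was 0.0185, with a 95% interval from counting of 0.00377 to 0.0549 (exact binomial, counting error only). In the fit the difference was -3.94 ± 0.47 (log2 ± SE, adjusted p = 6.86e-05, limma).

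METTL18 had 2.48, 3.06 and 2.51 CPM with KI-ARv-03, against 22.4, 25.7 and 22.4 CPM with DMSO. The treated libraries lay close together and far under the DMSO libraries, at a log2 difference of -2.73 ± 0.40 (adjusted p = 0.000794, limma). MIR22HG, the precursor RNA of microRNA-22, had 8.85, 5.68 and 8.96 CPM with KI-ARv-03, against 41.9, 51.3 and 53.5 CPM with DMSO. The groups did not overlap, and the log2 difference was -2.51 ± 0.37 (adjusted p = 0.000794, limma). The mature microRNA was not measured. Its form miR-22-3p is shown here from RefSeq (GRCh38.p14, chr17:1713914-1713935, minus strand), 5′ to 3′ with the seed, bases 2 to 8, in capitals, because MIR22HG is the transcript it is cut from.
miR-22-3p: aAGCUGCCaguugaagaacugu

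DNAJB1, the co-chaperone that delivers clients to HSP70 and a target of heat shock factor, had 12.03, 11.8 and 9.68 CPM with KI-ARv-03, against 60.9, 59.3 and 86.8 CPM with DMSO. All treated libraries were well below all DMSO libraries (log2 difference -2.51 ± 0.37, adjusted p = 0.000794, limma). It was the only one of 19 heat shock chaperone genes tested that was called, and the median of the list was 0.01, as it was over all genes tested. TOB2 had 25.5, 24.5 and 29.4 CPM with KI-ARv-03, against 126, 107 and 104 CPM with DMSO (-2.05 ± 0.35, adjusted p = 0.00650, limma). PNISR, the most abundant of the 8, had 198, 152 and 144 CPM with KI-ARv-03, against 554, 555 and 348 CPM with DMSO (-1.54 ± 0.30, adjusted p = 0.0255, limma). In neither gene did the groups overlap, but the called genes were chosen by their differences in these same libraries.

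CCNL2 had 50.2, 78.7 and 119 CPM with KI-ARv-03, against 19.0, 14.0 and 12.1 CPM with DMSO, a log2 difference of 2.32 ± 0.37 (adjusted p = 0.00290, limma). The treated libraries spread widely but all lay above the DMSO libraries. CLK2 had 19.1, 22.3 and 26.2 CPM with KI-ARv-03, against 0, 4.41 and 4.17 CPM with DMSO (2.94 ± 0.51, adjusted p = 0.00650, limma). One DMSO library held no read of it, and without that library, DMSO replicate 1, the log2 difference was 2.14 and the call was lost (adjusted p = 0.133, where the alternatives tried gave 9.12e-05 to 0.133). CLK2, TOB2 and PNISR were the called genes that lost their call in some alternative. TOB2 did so without KI-ARv-03 replicate 2 or DMSO replicate 1, CLK2 also without KI-ARv-03 replicate 2 and in a fit of the 6 libraries alone, and PNISR without any 1 library other than KI-ARv-03 replicate 1 and DMSO replicate 3, in that smaller fit and with the deposited scaling. The other 5 genes were called in all 16 alternatives.

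**Figure D1:**
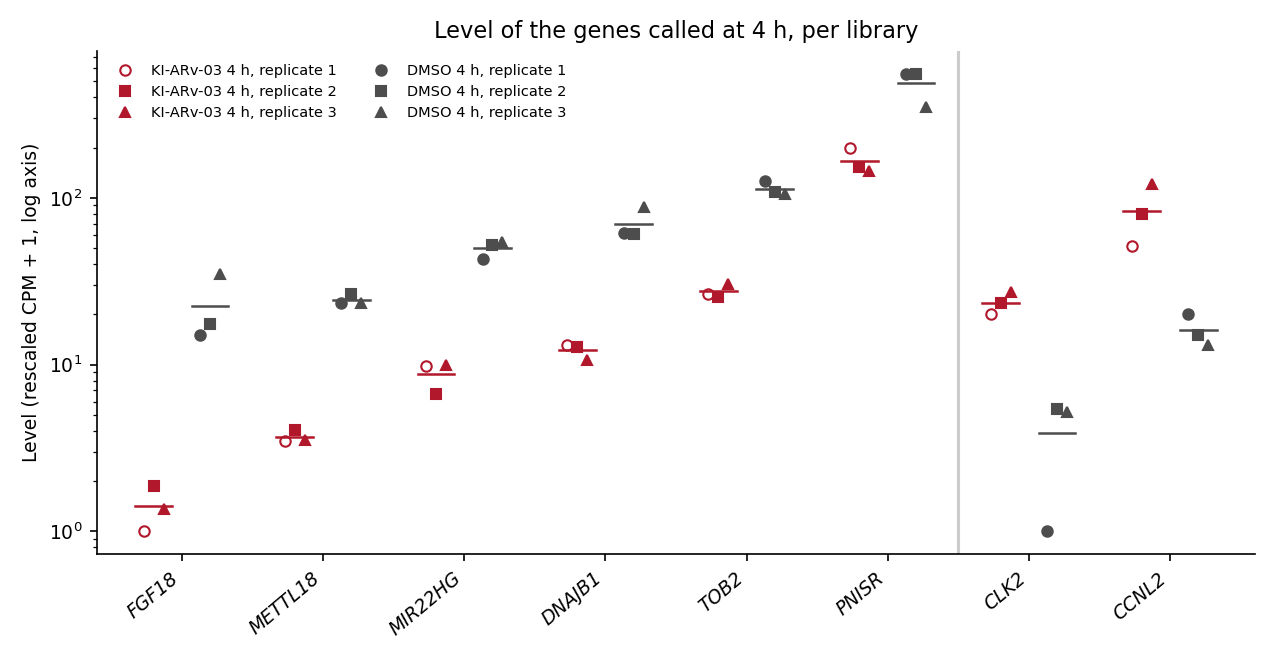
Level (rescaled CPM + 1, log axis) of the 8 called genes in each library, KI-ARv-03 left of DMSO for each gene, with 1 symbol per library and a line at the group mean. FGF18 to PNISR lie lower with KI-ARv-03 and CLK2 and CCNL2 higher, with no overlap of the groups in any of the 8. The genes were chosen by their differences in these same libraries, so the separation adds no support.

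Spans of METTL18, MIR22HG and DNAJB1 overlap those of FIRRM, MIR22 and TECR in RefSeq, and whether reads were counted by strand is not given in the sources used here, so reads of such neighbours could not be told apart. The promoters of DNAJB1, MIR22HG and CCNL2 are shown because they are the ones among the 8 that hold both GGGCGG and CCAAT, from RefSeq (GRCh38.p14): 250 bases before to 50 after the start of each gene, 5′ to 3′ on the gene's strand, which is the minus strand for all of them. Capitals mark the letters GGGCGG (the core of a GC box) and CCAAT, on either strand, where overlapping matches run together.
DNAJB1, chr19:14529222-14529521: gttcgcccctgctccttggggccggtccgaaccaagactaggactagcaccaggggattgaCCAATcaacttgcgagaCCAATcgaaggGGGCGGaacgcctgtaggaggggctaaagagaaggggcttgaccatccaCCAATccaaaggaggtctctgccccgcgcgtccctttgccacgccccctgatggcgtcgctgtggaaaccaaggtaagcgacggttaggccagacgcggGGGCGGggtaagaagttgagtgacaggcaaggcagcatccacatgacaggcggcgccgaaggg
MIR22HG, chr17:1716161-1716460: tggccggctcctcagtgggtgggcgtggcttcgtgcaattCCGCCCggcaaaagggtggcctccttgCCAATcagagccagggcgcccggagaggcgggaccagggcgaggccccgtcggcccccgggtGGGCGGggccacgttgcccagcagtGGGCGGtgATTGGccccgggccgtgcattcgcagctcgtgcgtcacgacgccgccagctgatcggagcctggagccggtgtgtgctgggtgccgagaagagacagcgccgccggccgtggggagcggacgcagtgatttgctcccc
CCNL2, chr1:1399286-1399585: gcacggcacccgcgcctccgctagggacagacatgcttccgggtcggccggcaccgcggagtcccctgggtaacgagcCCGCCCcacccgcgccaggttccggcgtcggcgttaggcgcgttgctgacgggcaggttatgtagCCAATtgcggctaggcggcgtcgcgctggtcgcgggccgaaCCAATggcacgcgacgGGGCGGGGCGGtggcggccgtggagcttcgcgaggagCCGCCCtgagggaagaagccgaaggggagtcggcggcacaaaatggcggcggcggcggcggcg

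DNAJB1 and MIR22HG were lower in level and CCNL2 higher. GGGCGG stands in 7 of the 8 called genes' promoters (87.5%) and in 71.7% of the 9333 promoters matched to genes tested. CCAAT stands in 3 of 8 (37.5%), the same share as in the genes tested (37.5%). CACGTG stands in 2 of 8, against 10.7%, and TATAAA in 1 (12.5%, against 5.01%). The pair GAANNTTC or TTCNNGAA, each a part of the heat shock element, was found in 1 of 8 (12.5%, against 9.60%), and DNAJB1 was not that gene. TGACGTCA was in none of the 8, against 3.30%.

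At the other times the called genes took different courses. FGF18, METTL18, MIR22HG and TOB2 had higher means at each later time with DMSO. With KI-ARv-03 the FGF18 mean stayed under 1 CPM at all times, and the means of the other 3 at 2, 4 and 8 h were below those at 0 h. FGF18 averaged 0.0685 ± 0.119 CPM at 0 h (SD, n = 3 here and below), then 0.201 ± 0.187 with KI-ARv-03 and 7.96 ± 2.89 with DMSO at 2 h, 0.411 ± 0.439 and 21.6 ± 10.9 at 4 h, and 0.581 ± 0.613 and 26.7 ± 16.0 at 8 h. TOB2 averaged 46.9 ± 7.54 CPM at 0 h, 32.9 ± 6.86 with KI-ARv-03 and 72.1 ± 25.5 with DMSO at 2 h, 26.4 ± 2.60 and 112 ± 11.7 at 4 h, and 14.3 ± 4.52 and 163 ± 38.1 at 8 h. PNISR had a lower mean with KI-ARv-03 at each time and a near constant one with DMSO, at 505 ± 98.5 CPM at 0 h and, at 8 h, 153 ± 51.8 with KI-ARv-03 and 555 ± 102 with DMSO.

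The higher pair took another course. CCNL2 averaged 69.7 ± 23.9 CPM at 0 h, 84.9 ± 12.6 with KI-ARv-03 and 31.2 ± 5.45 with DMSO at 2 h, 82.8 ± 34.7 and 15.1 ± 3.55 at 4 h, and 80.5 ± 48.4 and 14.5 ± 2.47 at 8 h. Its mean with KI-ARv-03 was near that at 0 h, while that with DMSO was below it. CLK2 averaged 37.8 ± 12.2 CPM at 0 h, 26.2 ± 3.26 with KI-ARv-03 and 8.27 ± 2.9985 with DMSO at 2 h, 22.5 ± 3.54 and 2.86 ± 2.48 at 4 h, and 24.3 ± 11.6 and 2.55 ± 1.82 at 8 h. Both of its means at 4 h lay below that at 0 h, the DMSO mean by far the more. One of the 0 h libraries stood apart in level, and without it the 0 h means were 56.6 CPM for CCNL2 and 30.8 CPM for CLK2, as well as 0.103 for FGF18, 51.0 for TOB2 and 562 for PNISR. Differences from 0 h were not tested.

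**Figure D2:**
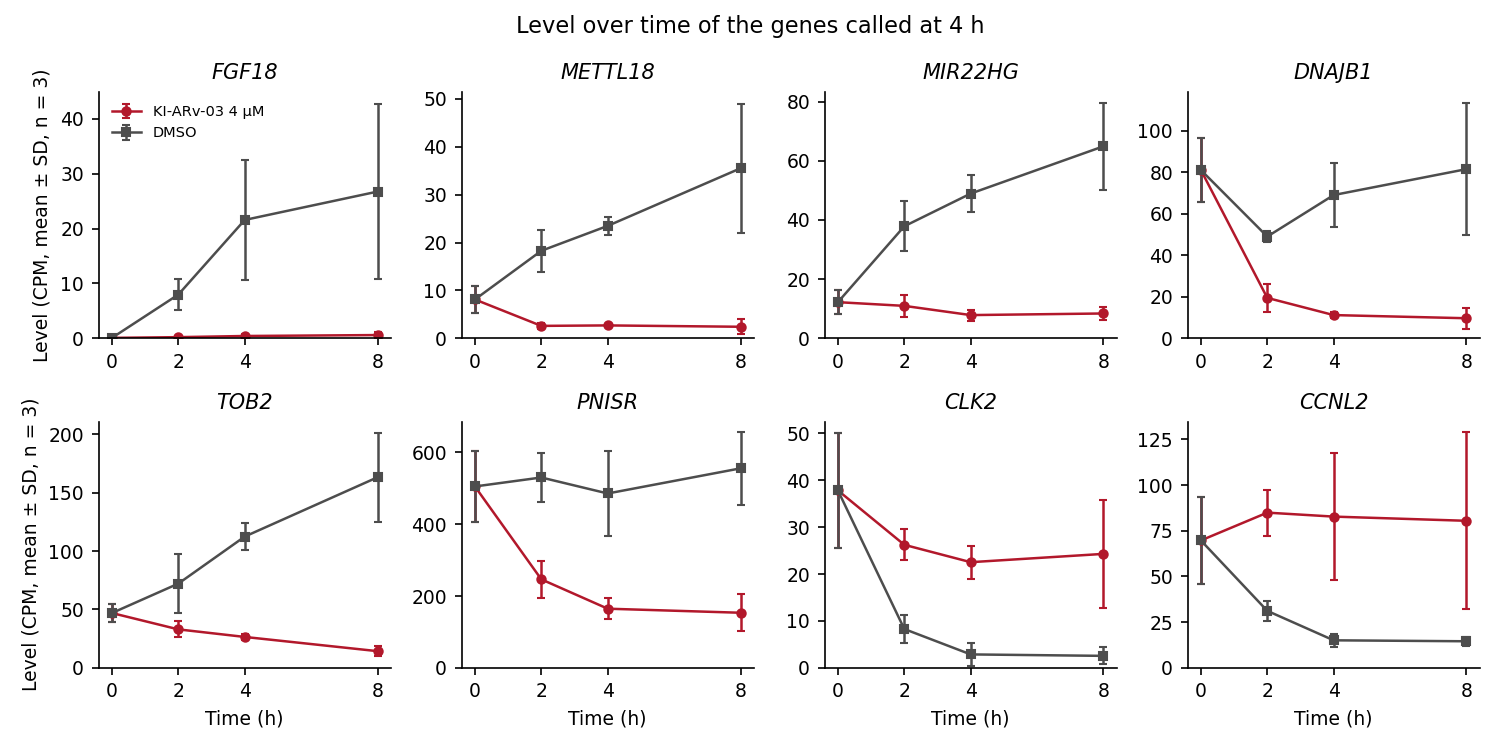
Mean level in CPM with SD (n = 3) of the 8 called genes at 0, 2, 4 and 8 h, KI-ARv-03 in red and DMSO in grey, sharing the 0 h libraries. With DMSO, FGF18 reached 21.6 CPM at 4 h and CCNL2 was at 15.1 CPM, against 0.411 and 82.8 CPM with KI-ARv-03.

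In separate libraries, FGF18 and METTL18 were also called lower at 2 h (log2 differences from DMSO -2.87 ± 0.47 and -2.42 ± 0.40, both adjusted p = 0.00872, limma), and the other 6 were not. At 8 h all 8 were called in the same direction as at 4 h, with adjusted p from 2.66e-06 (TOB2, -3.45 ± 0.35) to 0.00174 (CLK2, 2.85 ± 0.51). A test of the difference itself found no gene whose effect at 4 h departed from that at 2 h, or whose effect at 8 h departed from that at 4 h. Of 11414 genes, 0 were called in each of these limma interactions, with 239 (2.09%) and 650 (5.69%) at an unadjusted p under 0.05, and no other tool was run on them.

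KB742 was measured at 1.2 µM, a different dose, and its comparison uses the same 3 DMSO libraries, so the values are only set side by side. FGF18 averaged 0.140 ± 0.243 CPM with KB742, METTL18 3.01 ± 1.63, MIR22HG 8.83 ± 3.10, DNAJB1 15.4 ± 6.13 and TOB2 23.8 ± 8.21. CLK2 averaged 21.0 ± 9.57 and CCNL2 76.4 ± 20.8 CPM with KB742. Those 7 means were on the same side of the DMSO mean as with KI-ARv-03 and were called against DMSO (adjusted p from 1.72e-05 for FGF18 to 0.0177 for CLK2, limma). PNISR averaged 220.2 ± 63.9 CPM with KB742 and was not called there (-1.15 ± 0.30, adjusted p = 0.248).

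Just beyond the threshold were TNRC6B, a scaffold of microRNA silencing (0.94 ± 0.20, adjusted p = 0.0691, limma), RAB3A, a vesicle-associated GTPase, CAMSAP2, which binds microtubule minus ends (1.59 ± 0.34, adjusted p = 0.0786), and the T-box repressor TBX3. TBX3 had 37.5, 45.9 and 37.3 CPM with KI-ARv-03, against 19.5, 18.8 and 16.3 CPM with DMSO (1.10 ± 0.24, adjusted p = 0.0862, limma). RAB3A had 9.20, 4.81 and 6.09 CPM with KI-ARv-03, against 21.0, 24.9 and 27.7 CPM with DMSO (-1.76 ± 0.37, adjusted p = 0.0780). The groups were apart in both genes, which were picked by their p-values in these same libraries. Over all genes, 231 (2.02%) were lower and 217 (1.9%) higher at an unadjusted p under 0.05. Half-widths of the 95% intervals had a median of 0.866 log2 units over genes. For 4222 genes (37.0%) the interval stayed within 1 log2 unit of 0, so for most genes a difference of that size lay within the interval.

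The CLK kinases, L-type cyclins and DYRK kinases had the most positive median difference in level of the lists examined, at 1.20 over 10 genes tested (0.85 with the deposited scaling, which moves the median of all genes from 0.01 to 0.12). CLK2 and CCNL2 were called higher and none lower. CCNL1, the other L-type cyclin, had 11.3, 12.2 and 13.6 CPM with KI-ARv-03, against 1.95, 6.42 and 3.79 CPM with DMSO (1.50 ± 0.38, adjusted p = 0.207, limma), with no overlap. CLK1 averaged 7.72 ± 1.64 CPM with KI-ARv-03 and 2.83 ± 2.23 with DMSO, and CLK3 6.72 ± 3.18 with KI-ARv-03 and 2.44 ± 2.40 with DMSO, and neither was called.

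Among immediate early and short-lived regulators, 0 of 23 genes tested were called by limma, and 5 were lower at an unadjusted p under 0.05, against 2.02% of all genes. The median difference was -0.47, against 0.01 over all genes (-0.25 against 0.12 with the deposited scaling). KLF6, a zinc-finger factor of this list, had 30.8, 34.5 and 36.2 CPM with KI-ARv-03, against 159, 95.8 and 69.4 CPM with DMSO. These groups were clearly apart, but the DMSO libraries spread widely (-1.57 ± 0.35, adjusted p = 0.107, limma). Its level was called lower by DESeq2 (adjusted p = 0.00618) and by limma with library weights (0.00239). At 2 h KLF6 was called lower (-2.10 ± 0.35, adjusted p = 0.00872). ATF3, a stress-responsive bZIP factor, had 2.48, 6.12 and 3.94 CPM with KI-ARv-03, against 15.1, 8.42 and 21.6 CPM with DMSO, and was not called (-1.60 ± 0.52, adjusted p = 0.698). JUN and EGR1 averaged 38.4 ± 6.70 and 26.6 ± 2.03 CPM with KI-ARv-03, against 39.5 ± 13.1 and 23.8 ± 4.47 CPM with DMSO, both with overlapping libraries. MYC was scarce, at 0.708, 2.62 and 1.08 CPM with KI-ARv-03 and 7.80, 3.61 and 3.79 CPM with DMSO (-1.31 ± 0.59, adjusted p = 1.00).

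Prostate lineage genes gave no call in level. KLK3 (the gene of PSA), the homeobox factor HOXB13 and the pioneer factor FOXA1 had overlapping groups, with log2 differences of -0.17 ± 0.45, 0.11 ± 0.29 and -0.54 ± 0.36. None of 16 luminal transcription factors was called by limma (median 0.12). Nor was any of 37 P-TEFb and elongation genes (median 0.09), of 9 anti-apoptotic genes (median 0.14) or of 76 ribosomal protein genes (median -0.14). CDK9 itself was near the detection limit, at 1.60 ± 0.833 CPM with KI-ARv-03 and 3.68 ± 0.911 CPM with DMSO (-0.88 ± 0.41, adjusted p = 1.00).

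In the main fits more genes were called in conversion than in level, and the power of these tests was not compared. Conversion was lower with KI-ARv-03 in 558 of 7633 genes tested (7.31%) and higher in 4 (0.0524%), by limma after an arcsine square root transform. Without KI-ARv-03 replicate 1 it was lower in 1389 of 7253 genes (19.2%) and higher in 3 (0.0414%). Of the 558 lower genes, 518 (92.8%) were also called without that library, and they made up 37.3% of the calls made without it. On a log2 scale 33 genes were called with replicate 1 and 804 without it. Leaving out KI-ARv-03 replicate 2 or 3 or DMSO replicate 3 in place of replicate 1 gave 206, 277 and 313 calls, against 562 with all libraries. All 3 KI-ARv-03 libraries lay below all 3 DMSO libraries in 897 (13.2%) of 6779 genes with at least 20 reads in each library, and replicates 2 and 3 did so in 3505 (51.7%).

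Genes with lower conversion differed little in level. The 558 genes with lower conversion had a median log2 level difference of -0.02, against 0.02 over the genes tested in both. Of them 291 (52.2%) had a negative level difference, against 47.8% of genes tested in both. Of the 8 genes called in level, 5 had enough reads to be tested in conversion, and TOB2, PNISR and CCNL2 were lower, with and without replicate 1.

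Mean conversion over all reads was 1.18%, 0.383% and 0.422% with KI-ARv-03, against 1.12%, 1.01% and 1.12% with DMSO. KI-ARv-03 replicate 1 lay above the DMSO libraries, and the other 2 far below. The means were 0.662% ± 0.450 and 1.08% ± 0.0667 (SD, n = 3 each; difference -0.422 percentage points, exact two-sided permutation p = 0.4). Without replicate 1 the KI-ARv-03 mean was 0.402% ± 0.0279 (n = 2), 0.371 of the DMSO mean. The difference was then -0.681 points (exact p = 0.1, the smallest these libraries allow). The median over genes, given above, differed by -0.0380 points (exact p = 1.0), and by -0.478 points without replicate 1 (exact p = 0.1). In libraries of other times, KI-ARv-03 gave 0.371% to 0.412% at 2 h and 0.296% to 0.415% at 8 h, so KI-ARv-03 replicate 1 at 4 h was the highest of the 9 libraries of that compound.

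The excess of replicate 1 differed with how fast a gene labelled. Genes were binned by their mean conversion with DMSO at 2 h, in libraries outside the comparison. In the 593 genes of the slowest bin, below 0.1%, the median conversion was 0.811% in KI-ARv-03 replicate 1, against 0.0660% and 0.0620% in KI-ARv-03 replicates 2 and 3 and 0.135% to 0.187% in the DMSO libraries. Replicate 1 was the highest of the 6 libraries in 80.1% of these genes. In the 63 genes above 10% it was the highest in 1.59%, and the 3 KI-ARv-03 medians were 10.8%, 10.3% and 12.1%, against 22.2%, 22.2% and 24.1% with DMSO. Fast-labelling genes thus showed the lower conversion in all 3 treated libraries, and slow-labelling genes in only 2 of them. Of the calls without replicate 1, 25 fell in the slowest bin, where 1 gene was called with it. In the fastest bin the counts were 35 without it and 36 with it. Of the 376 genes from 3% to 10%, 228 were called lower without it and 195 with it. Of the 1333 genes from 1% to 3%, the counts were 435 and 185. Shares of all genes, set beside lists below, are not matched for labelling speed or for read depth. Lists that label fast start from a higher share, and the part of read depth was not tested.

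**Figure D3:**
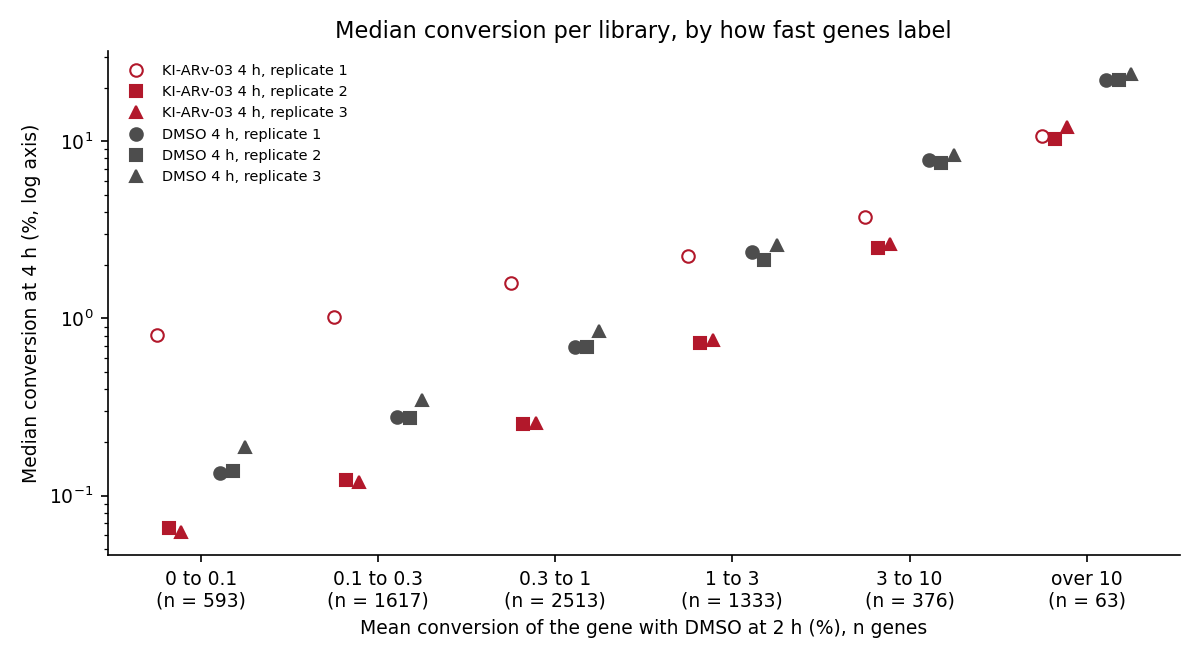
Median conversion at 4 h (percent, log axis) in each of the 6 libraries, KI-ARv-03 left of DMSO, for genes in 6 bins of mean conversion with DMSO at 2 h (percent). KI-ARv-03 replicate 1 (open circles) lies above all other libraries in the slowest bin (0.811%) and with its fellow replicates in the fastest (10.8%).

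The largest falls in conversion, among genes called without replicate 1, were in C1orf35, TOB2, GRWD1, KBTBD6, C19orf25, RSRC2, ZNF282, IST1, PUS3 and IFI35. In each of them all 3 KI-ARv-03 libraries, replicate 1 included, lay below all DMSO libraries, as in 13.2% of genes with at least 20 reads in each library. The 10 were chosen by their falls in these same libraries, so the separation adds no support. All 10 were called with replicate 1 too (adjusted p 3.18e-06 to 0.0313), and without it the adjusted p ran from 2.92e-05 to 0.0369 (limma). On the log2 scale with all libraries the 10 lost their call (0.0934 to 0.506). RSRC2 was the least stable, called in 9 of 16 alternatives, and lost its call without KI-ARv-03 replicate 2 (0.161) or 3 (0.0641), without DMSO replicate 2 (0.0557) or 3 (0.133) and with at least 10 reads (0.0588). The other 9 kept theirs when any 1 library was left out. C1orf35, GRWD1, PUS3 and RSRC2 also lost theirs on the log2 scale without replicate 1 (0.0917 to 0.239), and C19orf25 in the 2 groups alone without it (0.0535). GRWD1, C19orf25, IST1 and PUS3 overlap the neighbouring genes KCNJ14, APC2, ZNF821 and HYLS1.

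TOB2 had a conversion of 5.61%, 6.04% and 6.87% with KI-ARv-03, against 31.2%, 30.7% and 30.8% with DMSO. Its replicates were almost equal within each group. It stood in both sets of results, as the level was lower as well. KBTBD6, a substrate adaptor of a cullin-3 ubiquitin ligase, had 6.99%, 6.23% and 3.24% with KI-ARv-03, against 19.5%, 28.0% and 28.5% with DMSO. IST1, a regulator of the ESCRT membrane-scission machinery, had 3.60%, 1.65% and 4.78% with KI-ARv-03, against 20.8%, 18.1% and 22.6% with DMSO. GRWD1, a histone-binding protein of ribosome assembly and DNA replication licensing, had 9.29%, 11.3% and 7.83% with KI-ARv-03, against 26.4%, 37.0% and 33.2% with DMSO. Their levels were not called, with log2 differences of -0.05 ± 0.34 for KBTBD6, -1.19 ± 0.31 for IST1 and -0.51 ± 0.53 for GRWD1. With library weights the level of IST1 was called lower (adjusted p = 0.0303, limma).

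CCNL2 was the gene called in opposite directions. Its level was higher, but its conversion was 1.71%, 0.428% and 0.257% with KI-ARv-03, against 7.96%, 9.22% and 5.94% with DMSO (adjusted p = 8.91e-06, limma, and 6.79e-06 without replicate 1). The RNA of this gene in treated cells thus carried little label. It stood at 0.382% ± 0.214 at 0 h (SD, n = 3). PNISR had 9.29%, 7.24% and 8.20% with KI-ARv-03, against 13.7%, 12.8% and 13.8% with DMSO (adjusted p = 0.00764, and 0.00576 without replicate 1). DNAJB1 had 23.9%, 24.4% and 33.2% with KI-ARv-03, against 43.5%, 39.0% and 38.6% with DMSO, without overlap but not called (adjusted p = 0.117, and 0.169 without replicate 1). MIR22HG had 25.2% and 22.3% in KI-ARv-03 replicates 1 and 3, against 27.2%, 29.8% and 31.9% with DMSO, and was not called (adjusted p = 0.607). FGF18 and METTL18 had too few reads with KI-ARv-03 for a conversion value, and stood at 33.4% ± 3.24 and 50.03% ± 4.60 with DMSO.

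Several genes with among the smallest p-values in conversion were not called in level. POLE3, a histone-fold subunit of DNA polymerase epsilon, had 2.83%, 1.78% and 1.99% with KI-ARv-03, against 8.55%, 6.80% and 7.90% with DMSO (adjusted p = 3.07e-07, limma, and 7.59e-07 without replicate 1). PPP2R2A, a regulatory subunit of protein phosphatase PP2A, had 3.74%, 2.27% and 1.88% with KI-ARv-03, against 13.9%, 14.6% and 13.9% with DMSO (adjusted p = 2.13e-06 and 7.54e-06). PMEPA1, a regulator of TGF-beta signalling, had 4.18%, 2.68% and 3.01% with KI-ARv-03, against 9.65%, 9.84% and 11.2% with DMSO (adjusted p = 1.03e-06 and 2.10e-06). CCND1, cyclin D1, had 2.60%, 1.18% and 1.30% with KI-ARv-03, against 6.40%, 5.44% and 8.79% with DMSO (adjusted p = 3.18e-06 and 5.78e-06). Their log2 differences in level were -0.29 ± 0.30 for POLE3, 0.25 ± 0.22 for PPP2R2A, 0.56 ± 0.24 for PMEPA1 and 0.44 ± 0.28 for CCND1. These 4 genes were named after their values were seen, like the other genes that the rule for naming does not cover. On the log2 scale with all libraries, POLE3, PPP2R2A, CCND1, ONECUT2, PMEPA1, CCNL2, FDPS and GAPDH kept their calls, with an adjusted p of at most 0.0452 in any alternative. PNISR, FOXA1, SOX4, MCL1, CCNT1, KLF6, ZFP36L1 and CDKN1A, described here or below, lost theirs on that scale (0.204 to 0.775). Leaving out 1 library also ended the calls of PNISR (0.0627 without KI-ARv-03 replicate 2), of FOXA1 (0.0995 without KI-ARv-03 replicate 2 and 0.0726 without DMSO replicate 3), of CCNT1 (0.0669 and 0.0691 without the same libraries) and of KLF6, which was lost without any 1 of the 6 (0.0524 to 0.120). FOXA1 was not called in the 2 groups alone either (0.116).

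**Figure D4:**
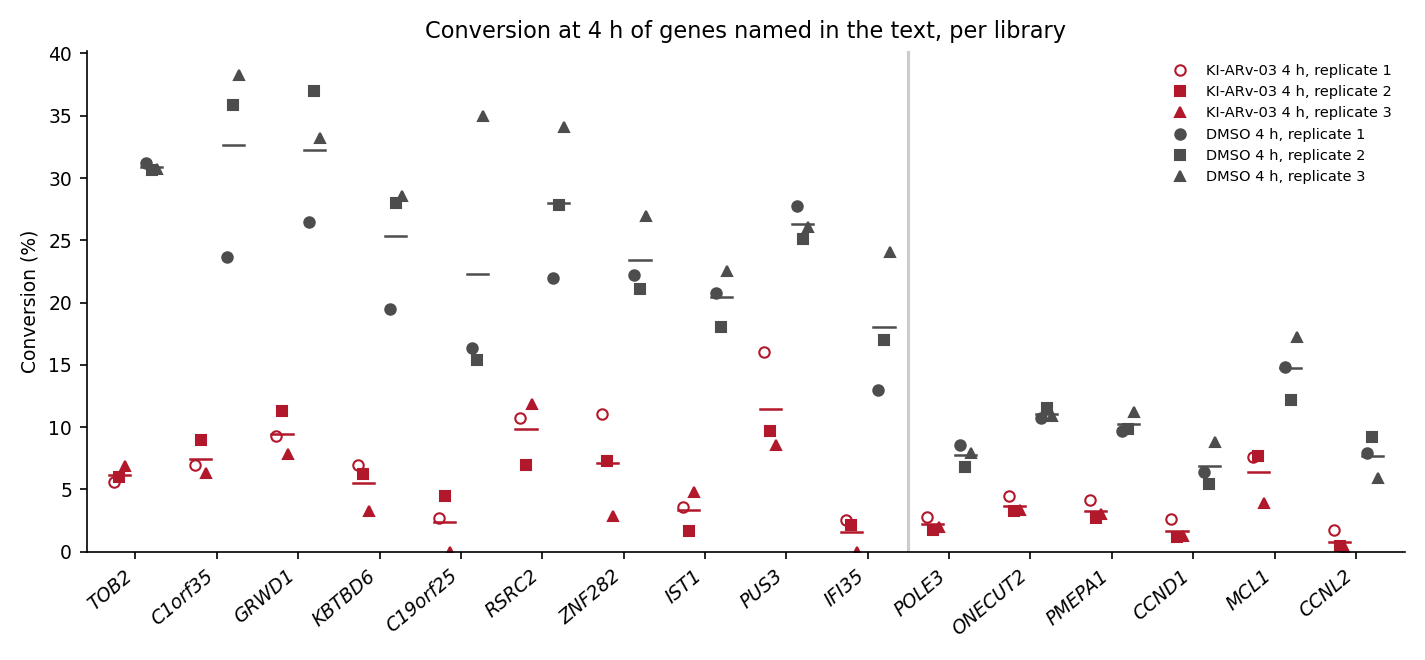
Conversion (percent) in each of the 6 libraries, KI-ARv-03 left of DMSO for each gene, of the 10 genes with the largest falls (left of the grey line) and of POLE3, ONECUT2, PMEPA1, CCND1, MCL1 and CCNL2. The groups do not overlap in any of them, with KI-ARv-03 replicate 1 as open circles, and TOB2 stands at 6.17% against 30.9% on average. Most of these genes were chosen by their conversion in the same libraries.

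Luminal transcription factors were among the genes with lower conversion. Of 12 tested, 4 were lower (33.3%, against 7.31% of all genes), and without replicate 1 it was 5 of 11 (45.5%, against 19.2%). The list labelled faster than all genes, with DMSO medians of 4.541% to 6.615%, against 0.668% to 0.823%. These shares therefore do not compare genes that label alike. ONECUT2, a homeobox factor linked to castration-resistant disease, had 4.44%, 3.28% and 3.35% with KI-ARv-03, against 10.7%, 11.6% and 10.9% with DMSO (adjusted p = 6.06e-07, limma, and 1.00e-06 without replicate 1). FOXA1 had 13.9%, 12.975% and 14.5% with KI-ARv-03, against 20.1%, 20.8% and 21.6% with DMSO (adjusted p = 0.0194 and 0.0230). SOX4 had 9.03%, 14.1% and 15.9% with KI-ARv-03, against 27.2%, 25.3% and 24.3% with DMSO, and GATA2, with 2 values in the treated group, averaged 7.64% ± 1.70 with KI-ARv-03 and 16.7% ± 2.00 with DMSO. These were lower in every library with a value, and GATA2 could not be tested without replicate 1 and was called in 7 of 11 alternatives (0.0662 without DMSO replicate 2). HOXB13 averaged 3.50% ± 1.14 with KI-ARv-03 and 3.27% ± 0.832 with DMSO (adjusted p = 0.947 and 0.877), with overlapping groups. KLK3 had conversion values of 0.972%, 0 and 0 with KI-ARv-03 and 0, 0.307% and 2.59% with DMSO, which overlap.

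Anti-apoptotic genes gave 2 lower genes of 7 tested (28.6%, against 7.31% of all genes), MCL1 and BCL2L1, and 3 of 7 without replicate 1 (42.9%, against 19.2%), with XIAP as the addition. BCL2L1 was called in 4 of 15 alternatives, and not without KI-ARv-03 replicate 2 (0.356) or 3 (0.0512) or DMSO replicate 2 (0.210) or 3 (0.167). MCL1, a short-lived BCL2-family protein, had 7.59%, 7.68% and 3.89% with KI-ARv-03, against 14.8%, 12.2% and 17.2% with DMSO (adjusted p = 0.00205, limma, and 0.00187 without replicate 1). Its level was not called, at 64.0, 27.1 and 35.1 CPM with KI-ARv-03 and 36.1, 34.5 and 36.8 CPM with DMSO (0.14 ± 0.40, and -0.21 without replicate 1). XIAP, an inhibitor of caspases, had 2.63%, 0.380% and 0.868% with KI-ARv-03, against 1.81%, 3.02% and 3.53% with DMSO (adjusted p = 0.140, and 0.0132 without replicate 1, in a range of 0.00235 to 0.529 over 16 alternatives). Here replicate 1 lay among the DMSO libraries.

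Of the genes of P-TEFb and elongation, 4 of 31 were lower (12.9%, against 7.31% of all genes), and 8 of 30 without replicate 1 (26.7%, against 19.2%). CCNT1, the cyclin partner of CDK9, had 7.11%, 6.99% and 9.38% with KI-ARv-03, against 16.1%, 13.9% and 18.8% with DMSO (adjusted p = 0.0117, limma, and 0.0214 without replicate 1). MEPCE, the capping enzyme of the 7SK RNA that holds P-TEFb inactive, averaged 6.46% ± 3.64 with KI-ARv-03 and 20.8% ± 4.00 with DMSO. The kinase CDK12 averaged 1.52% ± 1.61 with KI-ARv-03 and 6.63% ± 2.51 with DMSO, and MLLT3, a reader of acetylated histones in the super elongation complex, 2.28% ± 0.704 with KI-ARv-03 and 8.81% ± 2.95 with DMSO. Leaving out 1 library ended the calls of these 3, which held in 11 (MEPCE), 9 (CDK12) and 7 (MLLT3) of 15 alternatives (adjusted p up to 0.287, 0.293 and 0.472). HEXIM1, the protein inhibitor of P-TEFb, averaged 3.40% ± 1.89 with KI-ARv-03 and 3.26% ± 1.41 with DMSO, and the groups overlapped (adjusted p = 0.996 and 0.812). Its level was 12.8 ± 2.85 CPM with KI-ARv-03 and 10.8 ± 1.49 CPM with DMSO (0.21 ± 0.34).

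The immediate early list had the highest conversion of the lists plotted. Its median over 7 genes was 17.7%, 20.4% and 20.5% with KI-ARv-03, against 30.8%, 27.5% and 26.5% with DMSO, and here replicate 1 was the lowest library. KLF6, ZFP36L1 and ZFP36L2 were lower, 3 of 7 (42.9%, against 7.31% of all genes). Without replicate 1 it was ZFP36L1 alone (14.3%), below the 19.2% of all genes. ZFP36L2 was called in 7 of 16 alternatives, and of the 6 that leave out 1 library only without DMSO replicate 3. KLF6 had 32.0%, 35.6% and 33.0% with KI-ARv-03, against 42.0%, 45.7% and 45.3% with DMSO (adjusted p = 0.0376, limma, and 0.0566 without replicate 1, in a range of 0.0157 to 0.775 over 16 alternatives). ZFP36L1, an RNA-binding protein that promotes decay of AU-rich RNAs, had 6.94%, 6.39% and 6.78% with KI-ARv-03, against 15.2%, 15.7% and 16.4% with DMSO (adjusted p = 0.000202 and 0.000823). JUN averaged 31.4% ± 2.92 with KI-ARv-03 and 30.8% ± 2.85 with DMSO, and EGR1 28.2% ± 0.152 with KI-ARv-03 and 30.6% ± 2.97 with DMSO, and neither was called (adjusted p = 0.963 and 0.851, and 0.841 and 0.756 without replicate 1).

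At the other end were ribosomal protein, respiratory chain and glycolysis genes, whose RNAs are known as long-lived. Ribosomal protein genes had medians of 0.360%, 0.108% and 0.120% with KI-ARv-03, against 0.230%, 0.228% and 0.306% with DMSO. Of the 70 tested, 6 were lower (8.57%), close to the 7.31% of all genes. Without replicate 1 it was 21 of 69 (30.4%, against 19.2%). Respiratory chain genes gave 7 of 58 (12.1%) and, without replicate 1, 18 of 58 (31.0%), and glycolysis and housekeeping genes 3 of 23 and 10 of 22 (45.5%). In the glycolysis and housekeeping list 1 gene was called higher, with and without replicate 1. GAPDH had 0.411%, 0.242% and 0.368% with KI-ARv-03, against 1.22%, 0.956% and 1.34% with DMSO (adjusted p = 0.000353, limma, and 0.000819 without replicate 1), lower in every library. Its level was 4961, 3725 and 5196 CPM with KI-ARv-03, against 4468, 4971 and 4074 CPM with DMSO. ACTB averaged 0.593% ± 0.356 with KI-ARv-03 and 0.775% ± 0.175 with DMSO in conversion and was not called.

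The chaperone and mitosis lists gave no calls in conversion with all libraries. No heat shock chaperone gene of 16 and no G2 and mitosis gene of 22 was lower, and without replicate 1 there were 2 in each (12.5% and 9.09%, both below 19.2%). Sterol and lipid synthesis genes gave 3 of 22 (13.6%, against 7.31% of all genes) and 8 of 22 without replicate 1 (36.4%, against 19.2%). FDPS, farnesyl diphosphate synthase, had 0.954%, 0.128% and 0.325% with KI-ARv-03, against 4.26%, 4.06% and 5.12% with DMSO (adjusted p = 2.05e-05, limma, and 2.97e-05 without replicate 1). Of the p53 targets 2 of 13 were lower (15.4%, against 7.31%), CDKN1A and GDF15. Without replicate 1 it was 3 of 13 (23.1%, against 19.2%), with MDM2 as the addition. GDF15 was called in 9 of 15 alternatives and lost without KI-ARv-03 replicate 2 (0.0857) or 3 (0.0928) or DMSO replicate 3 (0.0605). CDKN1A, the CDK inhibitor p21, averaged 2.78% ± 0.549 with KI-ARv-03 and 10.7% ± 0.480 with DMSO (adjusted p = 9.13e-05 and 0.000227). G1 cyclins and E2F genes gave 4 of 14 (28.6%, against 7.31%), among them CCND1 and the CDK inhibitor CDKN1B, and 5 of 14 without replicate 1 (35.7%, against 19.2%).

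Calls were spread over the other lists as well, to be read against 7.31% of all genes with replicate 1 and 19.2% without it. Among deadenylation and mRNA decay genes 4 of 18 were lower (22.2%), TOB2, the decapping enzyme DCP1A, ZFP36L1 and ZFP36L2, and 5 of 17 without replicate 1 (29.4%). MYC-activated genes gave 3 of 27 (11.1%) and 7 of 26 (26.9%), SR and SR-like splicing factors 2 of 20 and 5 of 20, and stress response genes 2 of 16, XBP1 and NUPR1, and 5 of 14 (35.7%). Of 15 homologous recombination and checkpoint genes, XRCC2 was lower (6.67%), and 2 of 14 were lower without replicate 1 (14.3%), both below the shares of all genes. In lists with under 7 genes tested, IFI35 was lower of 4 interferon-stimulated genes, ID4 of 6 BMP and ID genes and none of 3 NF-kB-activated genes, and without replicate 1 it was 2 of 4, 1 of 5 and 1 of 3. Luminal identity markers gave 3 of 13 (23.1%) and 3 of 12. In level these lists held 2 calls, TOB2 and PNISR.

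**Figure D5:**
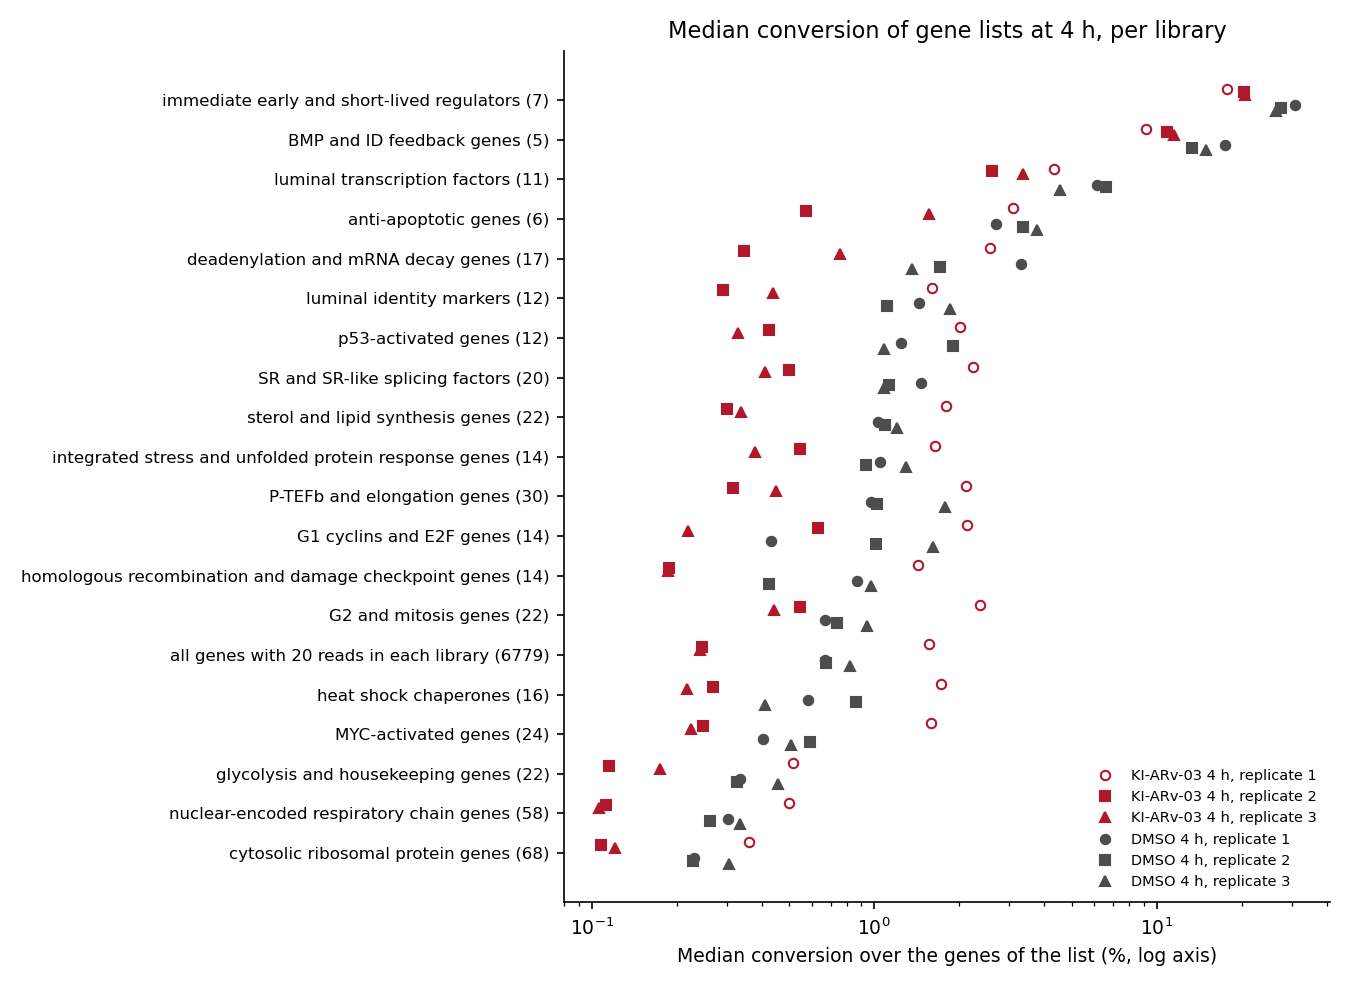
Median conversion (percent, log axis) over the genes of each list with at least 20 reads in all 6 libraries (their number in parentheses), KI-ARv-03 drawn above DMSO, for the lists shown, each of 5 or more such genes. KI-ARv-03 replicates 2 and 3 lie left of most DMSO libraries, while replicate 1 (open circles) lies right of them in slow lists (0.360% for ribosomal protein genes) and left of them in fast ones (17.7% for immediate early genes).

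The 4 genes with higher conversion were HK2, LRRC42, MANBA and RACGAP1. HK2, hexokinase 2, had 1.14%, 0.995% and 0.618% with KI-ARv-03 and 0 in all 3 DMSO libraries (adjusted p = 0.0179, limma, and 0.0184 without replicate 1). RACGAP1, a GTPase-activating protein of cytokinesis, had 1.91%, 0.644% and 2.55% with KI-ARv-03, against 0.101%, 0.0850% and 0.0330% with DMSO (adjusted p = 0.0205 and 0.0304). The groups do not overlap in either gene, both picked by their calls in these same libraries, and all values are low. HK2 was called in 10 of 15 alternatives, and lost without KI-ARv-03 replicate 2 (0.0729) or DMSO replicate 2 (0.0531) or 3 (0.0674). RACGAP1 was called in 10 of 16, and lost without KI-ARv-03 replicate 3 (0.140) or DMSO replicate 3 (0.0766). Without replicate 1 LRRC42 lost its call (adjusted p = 0.0698, in a range of 0.00889 to 0.321 over 13 alternatives) and MANBA could not be tested.

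At each time TOB2 and CCND1 had lower mean conversion with KI-ARv-03. TOB2 averaged 1.47% ± 1.18 at 0 h, 3.38% ± 1.66 with KI-ARv-03 and 12.9% ± 2.31 with DMSO at 2 h, 6.17% ± 0.638 and 30.9% ± 0.288 at 4 h, and 11.6% ± 8.77 and 40.1% ± 2.96 at 8 h (SD, n = 3). CCND1 averaged 0.485% ± 0.148 at 0 h, 0.933% ± 0.0901 with KI-ARv-03 and 2.34% ± 0.629 with DMSO at 2 h, 1.69% ± 0.788 and 6.87% ± 1.72 at 4 h, and 1.48% ± 0.404 and 13.5% ± 3.21 at 8 h. With KI-ARv-03 at 4 h both were above their means at 0 h. With KB742 at 4 h TOB2 averaged 8.45% ± 3.55 and CCND1 1.02% ± 0.377, values set beside those of KI-ARv-03 without a test.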

How the data were processed

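SLAM-seq libraries were sequenced from the 3′ ends of transcripts (QuantSeq) with 75 cycles after alkylation of s4U, per the labels' protocols. The authors deposited a signal headed CPM for each transcript and library, which sums to 840350 to 1379614 over the rows of a library, and a conversion fraction, per the file headers. Reads were aligned to hg19, per the submitters' processing notes, while the names of aligner and conversion caller, and strand use, were not given in the sources used here. All values in the CPM columns were whole multiples of 1 read within 0.05, so reads were recovered. Of 50925 RefSeq IDs 50531 (99.2%) had a symbol, 0.478% of reads had none, and the transcript with the highest summed CPM stood for each of 22355 genes.

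Levels were tested with limma 3.58.1 (R 4.3.3, edgeR 4.0.16 for TMM factors and a minimum count of 10) with trended variances on log2(CPM + 1), a scale that understates the changes of low genes, over all 30 libraries in 10 groups of 3. Levels printed are rescaled by the TMM factors. Conversion, printed in percent, was tested with limma on the arcsine square root scale, for values behind at least 20 reads. Calls were made where p, adjusted by Benjamini and Hochberg over every gene in the fit, was under 0.05. The count test on recovered reads was edgeR's quasi-likelihood test, which called 8 genes, and DESeq2 1.42.0 was another alternative. Mean and median conversion per library were compared by exact permutation tests. Both fits were tested on simulated data. These held no library that stands apart in conversion, so they do not cover the case of KI-ARv-03 replicate 1. No pair of the 6 libraries differed by less than sampling noise. Same-numbered libraries did not deviate together (correlations -0.127, 0.0217 and 0.157), so replicate numbers were not used as pairs. Differently numbered libraries of the 2 groups gave -0.337 (KI-ARv-03 replicate 3 with DMSO replicate 2) to 0.367 (KI-ARv-03 replicate 1 with DMSO replicate 2).

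Genes named were the called genes in level, the 10 largest falls in conversion among genes called without KI-ARv-03 replicate 1, the called members of lists, and a set of genes named in any case, here KLK3, FOXA1, HOXB13, ONECUT2, MYC, MCL1, XIAP, CDK9, CCNT1, HEXIM1, KLF6, GAPDH and ACTB, while some results are not reported here. Other genes were named after their values were seen. The comparison, the 28 gene lists and the genes were chosen with earlier results of these data known.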

Additional observations from a re-analysis of the deposited data

How the results depend on the processing

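Of the counts of genes called in level, 8 in all, other scalings, filters, pseudocounts, the 2 groups alone and edgeR gave 7 to 9, while library weights gave 71, DESeq2 21 and the fit without the libraries that stand apart 15. Leaving out 1 library gave 5 (without KI-ARv-03 replicate 2 or DMSO replicate 1) to 11. The conversion count of 562 became 33 on the log2 scale, 2003 with library weights and 858 in the 2 groups alone without KI-ARv-03 replicate 1, and leaving out 1 library gave 206 (without KI-ARv-03 replicate 2) to 1392 (without KI-ARv-03 replicate 1). With libraries centred it was 639, of which 52 were higher. The causes were not tested. A fit with the replicate number as a block gave 8 calls in level and 532 in conversion. The difference in median conversion of -0.0380 points turned to 0.00600 in genes with at least 50 reads, and ran from -0.478 to 0.183 when 1 library was left out (0.1805 without KI-ARv-03 replicate 2, 0.183 without replicate 3 and 0.0130 without DMSO replicate 3). That in mean conversion stayed between -0.681 and -0.282. The tests of 4 h against 2 h and 8 h against 4 h gave 0 calls by limma in the alternatives tried. For single genes in level, 497 alternatives kept the call or its absence, 11 lost one and 4 gained one, and in conversion 363, 44 and 10, with no call reversed in direction. Level differences of genes not called did change sign in some alternatives, as for MCL1, KLK3, HOXB13, GAPDH and ACTB. The fits without the libraries that stand apart, and those that combine leaving out KI-ARv-03 replicate 1 with another choice, were chosen after seeing the data.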
